A study of Mus musculus with 12 samples.

Results

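The proneural basic helix-loop-helix (bHLH) factors Neurog1, Neurog2, Neurod1, Neurod2, Neurod4 and Neurod6 were followed together with Eomes and Insm1 in the embryonic mouse cortex. These 8 genes were listed by name, and 7 of the 23513 genes in the count tables were members. Neurod1 was not analysed here. Nuclei came from the cortices of C57BL/6J embryos whose dams were injected i.p. once daily with saline or with 2.5 g/kg ethanol (EtOH), 6 times from embryonic day 8.5, and the labels give embryonic day 14 as the age. Dam S1 gave saline embryos S1-1 and S1-2, and dam S2 gave S2-1, S2-2 and S2-4, 5 in all. Dam E1 gave EtOH embryos E1-1 and E1-2, and dam E2 gave the other 4 (6 in all). Batch 1 held the litters of S1 and E1 and batch 2 those of S2 and E2. Each embryo was sequenced as 1 single-nucleus library, and the authors sorted the nuclei into 25 clusters of radial glial cells (RGC), intermediate progenitor cells (IPC), projection neurons (PN), interneurons and 3 other kinds. Markers lay in the classes named for them: Hes1 was highest in RGC Cluster 2, Top2a and Mki67 in mitotic IPC Cluster 17, Gad2 in interneuron Cluster 23 and Reln in Layer I Cluster 14. Levels are given as CPM, the counts scaled to a fixed library total, of unique molecular identifiers (UMIs) summed per embryo and cluster, for embryos with at least 10 nuclei in the cluster.

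Proneural bHLH proteins pair with the E proteins Tcf3, Tcf4 and Tcf12 and bind short DNA motifs called E boxes. In the dorsal cortex, Neurog2 is the main proneural factor of neurogenic radial glia, where Notch signalling and its effector Hes1 hold it down. Neurog2 switches on Eomes (also called Tbr2), the T-box factor that marks IPC, and the NeuroD factors Neurod2 and Neurod6 then act in newborn and maturing glutamatergic neurons. Insm1 is a zinc finger factor that promotes the formation of IPC in many parts of the nervous system.

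Of the members, Neurod2 and Neurod6 had the most similar cluster patterns and different estimates after EtOH, so their promoters are shown. Both sequences are from RefSeq on GRCm38.p6, lie on the minus strand and end next to the transcription start, and capitals mark the E boxes, written CANNTG and the same on both strands.
Neurod2, chr11:98329649-98329895: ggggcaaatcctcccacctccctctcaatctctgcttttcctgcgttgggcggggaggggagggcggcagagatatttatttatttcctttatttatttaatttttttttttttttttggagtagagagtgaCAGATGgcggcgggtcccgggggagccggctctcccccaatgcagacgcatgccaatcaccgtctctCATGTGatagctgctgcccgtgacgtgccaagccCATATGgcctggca
Neurod6, chr6:55681264-55681513: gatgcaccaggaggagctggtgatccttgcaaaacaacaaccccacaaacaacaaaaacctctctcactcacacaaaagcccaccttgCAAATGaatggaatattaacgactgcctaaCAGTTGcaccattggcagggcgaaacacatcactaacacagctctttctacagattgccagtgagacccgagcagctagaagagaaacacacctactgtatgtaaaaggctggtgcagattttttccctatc
The Neurod2 promoter held 3 E boxes, CAGATG with its first base at -115 from the start, CATGTG at -48 and CATATG at -14. The Neurod6 promoter held 2, CAAATG at -162 and CAGTTG at -132. The promoters of Neurog1, Neurog2, Neurod4 and Eomes held 0 matches to CANNTG in the same window. CANNTG occurred in 66.2% of 27025 promoters, CATATG in 3.54% and CAGATG or its reverse CATCTG in 14.6%. A match describes the letters in this window and not a bound site.

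The members divided into a progenitor group and a neuronal group by where they were highest. Neurog1, Neurog2, Neurod4 and Eomes peaked in non-mitotic IPC Cluster 6, Insm1 in mitotic IPC Cluster 17, and Neurod2 and Neurod6 in early PN Cluster 9. Cluster levels describe the authors' clusters, whose defining genes include some members, and carry no test.

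Neurog2, at chr3:127633135-127635631 with 2 exons, averaged 136 ± 18.6 CPM (SD, 11 embryos) in Cluster 6. Mitotic IPC Cluster 17 followed with 80.6 ± 15.7 CPM, and non-mitotic RGC Cluster 12 with 69.3 ± 9.18 CPM. The ranges of Clusters 17 and 12 overlapped, while Cluster 6 stood above Cluster 17 in 10 of 11 embryos. Cluster 12 was above RGC 1 Cluster 2, at 29.1 ± 3.19 CPM, in 11 of 11 embryos, by 2.38 times. RGC clusters held 28.4% ± 3.98 of the Neurog2 UMIs of an embryo and IPC clusters 45.6% ± 5.44, although IPC were 9.56% ± 1.34 of the nuclei (SD, n = 11 for all). Outside progenitors, its highest PN level was 16.97 ± 4.47 CPM in Cluster 9, and late interneuron precursor Cluster 10 had 14.5 ± 6.88 CPM.

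Eomes, at chr9:118478212-118486132 with 5 or 6 exons, overlaps the opposite-strand gene Gm33460, and the strand used in counting is not given in the sources used here. IPC clusters held 63.3% ± 4.53 of its UMIs (SD, n = 11), and Cluster 6 exceeded Cluster 17 by 2.05 times, in 11 of 11 embryos. RGC Cluster 12, PN Cluster 24 at 59.4 ± 22.2 CPM, Reln-rich Layer I Cluster 14 at 51.9 ± 15.9 CPM and PN Cluster 9 at 49.8 ± 18.4 CPM followed, with overlapping ranges. Cluster 24 had at least 10 nuclei in fewer than 11 embryos. The drop from Cluster 6 to Cluster 9 was 8.31 times.

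Neurog1 and Neurod4 were sparse. Neurog1, a single-exon gene at chr13:56250478-56252163, gave 320 UMIs in all nuclei, of which IPC held 54.6% ± 13.6 per embryo (SD, n = 11). Cluster 6 averaged 5.54 ± 2.37 CPM of Neurog1, ahead of Cluster 17 (2.41 ± 2.11 CPM) and Cluster 12 (2.08 ± 1.02 CPM), and the ranges of these neighbours overlapped. Clusters 8, 18 and 25 had 0 Neurog1 UMIs, which allows up to 0.104, 0.352 and 1.18 CPM by counting error alone (3 counts over the cluster). Neurod4, at chr10:130268152-130280240, averaged 9.61 ± 2.79 CPM in Cluster 6, against 5.49 ± 2.39 CPM for Cluster 17. Every other cluster had at most 1.66 CPM of Neurod4, and Clusters 22 and 25 had 0 UMIs, which allows up to 0.456 and 1.18 CPM. Neurod4 was therefore found mainly in IPC, with 67.9% ± 9.45 of its UMIs there.

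Insm1, a single-exon gene at chr2:146221921-146225020, had the flattest distribution of the progenitor group. Dividing Cluster 17 averaged 33.8 ± 9.40 CPM against 20.5 ± 4.64 CPM for Cluster 6, and Insm1 was higher in Cluster 17 in 10 of 11 embryos, the reverse order of Eomes and Neurog2. RGC Cluster 12 at 20.04 ± 7.07 CPM, interneuron Cluster 10 at 18.1 ± 3.63 CPM and PN Cluster 9 at 14.9 ± 7.88 CPM overlapped with Cluster 6. PN held 29.0% ± 8.10 of Insm1 UMIs, RGC 24.8% ± 5.99, IPC 23.01% ± 2.96 and interneurons 18.5% ± 5.32 (SD, n = 11).

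Neurod6, at chr6:55677822-55681263, averaged 197 ± 22.5 CPM in Cluster 9, ahead of callosal Cluster 1 with 175 ± 27.5 CPM (SD, n = 11), and Cluster 9 was the higher in 11 of 11 embryos although the ranges overlapped. Both IPC clusters, at 114 ± 14.3 and 113 ± 19.9 CPM, overlapped with rostral subcortical Cluster 4 at 119 ± 12.96 CPM and caudal subcortical Cluster 16 at 110 ± 16.3 CPM. Neurod2, at chr11:98325415-98329648, changed more between IPC and PN: Cluster 9 exceeded Cluster 6 by 3.18 times, against 1.72 times for Neurod6, both in 11 of 11 embryos. After each nucleus was thinned to 2000 UMIs, Neurod2 was found in 10.7 to 42.0% of nuclei in the PN clusters, 14.8 and 15.9% in the IPC clusters and 2.01 to 5.09% in the interneuron clusters. The interneuron values serve as a background level, since these cells should lack the gene. Whether that background came from free RNA, doublets or mixed clusters was not tested. The heat map of levels shows the split between both groups and the bridging position of Neurod6 in IPC.

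**Figure D1:**
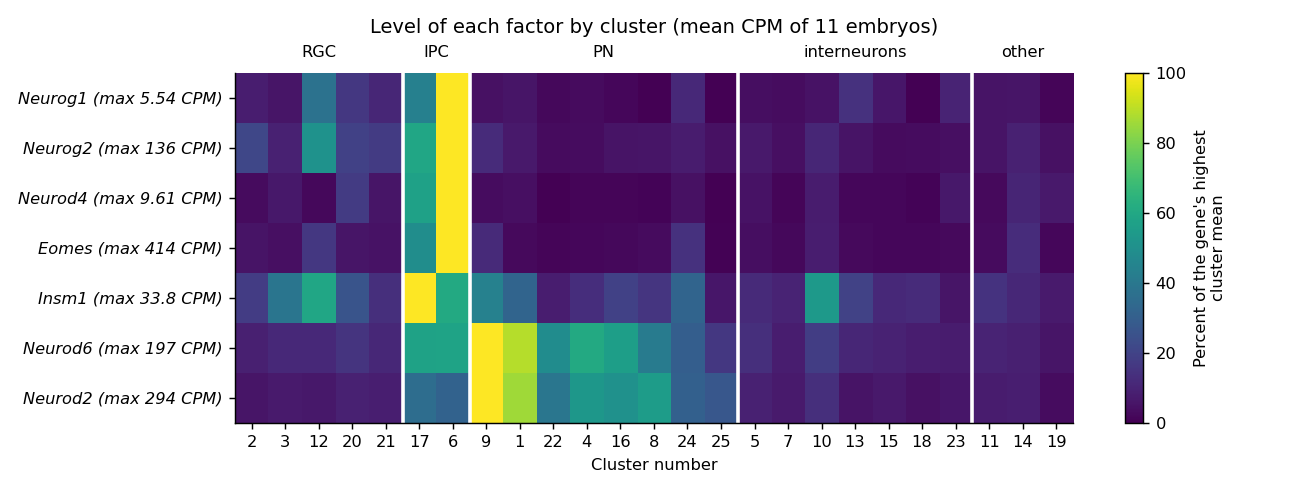
Mean CPM over embryos with at least 10 nuclei in the cluster, for each factor (rows) in each cluster (columns, grouped by cell class). Clusters 20, 21, 23, 24 and 25 had fewer than 11 such embryos, and the others 11. Colour gives the percent of the gene's highest cluster, whose CPM is printed beside the name. Neurog1, Neurog2, Neurod4 and Eomes are brightest in Cluster 6, Insm1 in Cluster 17, and Neurod2 and Neurod6 in Cluster 9.

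Across the 25 clusters, on mean log2(CPM + 1), Neurod2 and Neurod6 had a Pearson r of 0.96, and the progenitor pairs Eomes with Neurog2 and Neurog1 with Neurog2 had 0.88 and 0.87. Neurod2 had 0.08 with Neurog2. Clusters share libraries and differ in depth, so these values are descriptions. Among 11621 genes with at least 10 CPM in some cluster, those most like Neurog2 were Alpk1, Igsf8 and Mia2 (r from 0.93 to 0.92), and those most like Eomes were Cmc1, Neurog2 and Gm38399 (0.91 to 0.88). Cmc1, Neurog2 and Eomes were the nearest to Neurog1 (0.89 to 0.84), and Cbfa2t2, Eomes and Qsox1 to Neurod4 (0.83 to 0.81). Neurod6, Prdm8 and A730035I17Rik were nearest to Neurod2 (0.96 to 0.92), Neurod2, Ccdc129 and Fmnl2 to Neurod6 (0.96 to 0.92), and Mta2, Eps15l1 and Hsf2 to Insm1 (0.90 to 0.88).

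Within single clusters, nuclei with an Eomes UMI carried Neurog2 more often than nuclei without one. In RGC Cluster 12, Neurog2 was found in 33.8% ± 12.1 of the Eomes-positive nuclei and 9.65% ± 2.62 of the others (SD, 10 embryos, nuclei thinned to 2000 UMIs), and was higher in 10 of 10 embryos. In Cluster 17 the values were 23.9% ± 6.14 and 10.8% ± 3.30 (11 of 11 embryos), and in Cluster 6 26.3% ± 4.50 and 19.4% ± 3.53 (10 of 11). In Cluster 9 they were 2.74% ± 3.21 and 3.71% ± 1.16, higher with Eomes in 3 of 8 embryos.

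Neurod2 was compared with Eomes in the same way, with no test between clusters. In Cluster 17, 10.1% ± 4.58 of Eomes-positive nuclei and 17.3% ± 6.83 of the others had a Neurod2 UMI, higher with Eomes in 1 of 11 embryos. In Cluster 9, 30.9% ± 16.1 and 45.5% ± 9.52 did, higher with Eomes in 1 of 8. In Cluster 6 the shares were 14.8% ± 3.40 and 16.9% ± 4.26 (4 of 11), in RGC Cluster 12 4.54% ± 5.72 and 4.02% ± 2.27 (4 of 10), and in RGC Cluster 2 8.57% ± 8.47 and 2.86% ± 1.14 (3 of 6). Neurod6 in Cluster 9 was found in 35.4% ± 4.53 of Eomes-positive nuclei and 30.2% ± 4.04 of the others, higher with Eomes in 7 of 8 embryos, and in Cluster 17 in 21.3% ± 7.08 and 21.8% ± 4.67. Doublets were not removed, and their part in these shares was not tested. The bar plot of joint detection shows these shares.

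**Figure D2:**
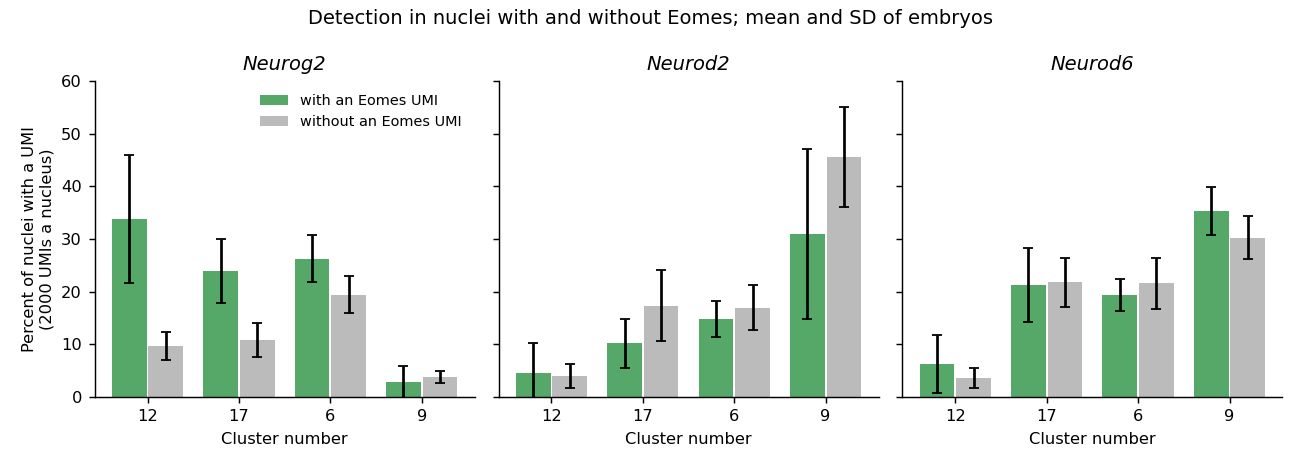
Percent of nuclei with a UMI of Neurog2, Neurod2 or Neurod6 (panels) among nuclei with (green) and without (grey) an Eomes UMI, in Clusters 12, 17, 6 and 9, thinned to 2000 UMIs a nucleus; bars are means and lines SDs of 8 to 11 embryos. Neurog2 is higher beside Eomes in Clusters 12, 17 and 6, and Neurod2 is lower beside Eomes in Clusters 17 and 9.

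The libraries differed in ways that bear on the treatment comparison. They held 50550 nuclei, 30349 from saline and 20201 from EtOH embryos, and pairs of libraries shared 1 to 18 barcodes. Total UMIs were 44017566 to 83061737 in saline and 14078316 to 38034349 in EtOH embryos. The median UMIs per nucleus were 8365 to 9051 in the saline embryos other than S2-4, 6325 in S2-4 and 4071.5 to 6911 in the EtOH embryos. Genes under 13 kb long, as all 7 members are, took 5.23 to 6.20% of the UMIs in 4 saline embryos, 6.77% in saline embryo S2-4, and 6.43 to 6.86% in the EtOH embryos. S2-4 therefore lay within the EtOH range, and values without it are given beside the member results. In the treatment fits, the median log2 fold change (EtOH over saline) of genes under 5 kb was above 0 in all 25 clusters (0.00031 to 0.52, median 0.30), and that of genes of 50 kb and over was below 0 in all 25 (-0.08 to -0.01).

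After EtOH, Neurod2 was called lower in 4 of 23 tested clusters, Neurog2 in 1 of 15 and Eomes in 0 of 16, while 0 calls were made for Neurod6 and Insm1. The estimates, called or not, were below 0 in 21, 12 and 14 of those clusters. Each cluster was tested across all its genes with edgeR, and a gene was called at a Benjamini-Hochberg adjusted p under 0.05 and a fold below 0.8 or above its inverse. Of 175 pairs of a member and a cluster, 88 passed the filter on low counts, and 5 were called lower and 0 higher (24 had an unadjusted p under 0.05). Over all genes and clusters, 0.792% of 217253 tests were called and 0.35% were called lower. Of these 217253 tests, 37725 had an unadjusted p under 0.05 and 106513 had an estimate below 0. The median log2 fold change of the 88 was -0.22, beside 0.01 for all tests. Within the 5 calls, Neurod2 had 4 (Clusters 1, 4, 9 and 17) and Neurog2 had 1 (Cluster 1). Every EtOH embryo was below every saline embryo for 4 of the 88, Neurod2 in Clusters 4, 17 and 24 and Neurog2 in Cluster 17, beside 0.947% of all tests.

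Neurod2 was lower in early PN Cluster 9. The saline embryos had 321, 416, 434, 406 and 239 CPM, in the order S1-1, S1-2, S2-1, S2-2 and S2-4 used throughout. EtOH embryos had 214 to 273 CPM with a median of 234. The groups overlapped through S2-4 only, which lay below 2 EtOH embryos. The means were 363 ± 81.8 (SD, n = 5) and 236 ± 20.6 CPM (n = 6), with a log2 fold change of -0.64 ± 0.14 (SE, edgeR adjusted p = 0.0445), in a cluster where 0.799% of genes were called lower. In the same nuclei the 6 interneuron markers summed to 82.3 to 236 CPM in saline and 15.7 to 120 CPM in EtOH embryos, and the 4 markers of dividing cells to 58.7 to 110 and 25.5 to 69.2 CPM. The 2 thalamus markers summed to 61.5 to 156 and 20.5 to 79.9 CPM, the 3 choroid plexus markers to 4.99 to 57.3 and 3.10 to 22.02 CPM, and the 6 radial glia markers to 52.0 to 64.3 and 26.6 to 63.8 CPM, while the 3 markers of meningeal fibroblasts had 24.001 to 53.8 and 29.6 to 56.8 CPM. The other lists reached at most 13.3 CPM. Their part in the lower Neurod2 was not tested.

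The same held in callosal Cluster 1 and rostral subcortical Cluster 4. Cluster 1 saline embryos had 298, 349, 392, 329 and 198 CPM, and EtOH embryos 187 to 224 CPM with a median of 198. S2-4 was again the only saline embryo inside the EtOH range. The log2 fold change was -0.69 ± 0.16 (SE, edgeR adjusted p = 0.0433), with 1.69% of the cluster's genes called lower. Interneuron markers in Cluster 1 summed to 64.7 to 198 and 49.8 to 109 CPM, and those of dividing cells to 38.6 to 114 and 18.8 to 53.7 CPM, and their part was not tested either. In Cluster 4 the saline embryos had 182, 226, 203, 204 and 141 CPM and the EtOH embryos 122 to 133 CPM, median 127, without overlap. Its log2 fold change was -0.62 ± 0.10 (SE, edgeR adjusted p = 0.0495), with 0.386% of genes called lower.

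In mitotic IPC Cluster 17, Neurod2 was at 133, 142, 158, 121 and 110 CPM in the saline embryos and at 64.5 to 109 CPM (median 75.8) in the EtOH embryos. The groups did not overlap, although the lowest saline and the highest EtOH embryo were close. The log2 fold change was -0.73 ± 0.14 (SE, edgeR adjusted p = 0.0353), in a cluster where 0.0352% of 8533 genes were called lower. The 6 radial glia markers summed to 223 to 298 CPM in Cluster 17 of saline and 289 to 402 CPM in EtOH embryos, and in the IPC class to 173 to 218 and 206 to 254 CPM. Their part in the lower Neurod2 was not tested. Non-mitotic Cluster 6 had 103 ± 19.5 and 83.8 ± 7.03 CPM, a log2 fold change of -0.36 ± 0.12 that was not called (edgeR adjusted p = 0.12). Whether the EtOH effect differed between Clusters 17 and 6 was not tested.

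Summed over cell classes, Neurod2 was called lower in PN, at 232 ± 45.8 CPM in saline and 150 ± 6.92 CPM in EtOH embryos (log2 -0.68 ± 0.12, edgeR adjusted p = 0.0234, 2.36% of genes lower). The groups barely separated: saline embryo S2-4 was at 159.7 CPM and the highest EtOH embryo at 159.3 CPM. Neurod2 was also lower in IPC, at 112 ± 17.98 and 83.8 ± 9.96 CPM (log2 -0.49 ± 0.12, adjusted p = 0.0479, 0.64% of genes lower). With counts summed per dam, neither was called (edgeR adjusted p = 0.0512 in PN and 0.105 in IPC). Over the 4 classes and all nuclei together, 4 of 29 member tests were called, all lower, beside 1.99% of 73107 tests called lower. The estimate for Neurod2 was below 0 in 21 of 23 tested clusters (median log2 -0.49). These include RGC and interneuron clusters, where the gene is near the background level. In both batches the estimate was below 0 in 15 of 22 clusters.

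The calls rested on few embryos, while the estimates kept their sign. Leaving out any 1 of the 10 embryos other than S2-4 ended all 5 cluster calls, and leaving out S2-4 gave 13 (12 lower and Insm1 in Cluster 1 higher), beside 8.78% of all tests called and 2.61% called lower in that setting. Without S2-4, Neurod2 was called in Clusters 1, 4, 6, 8, 9, 16 and 17, with log2 fold changes from -0.83 (Cluster 1) to -0.48 (Cluster 6). Over all 22 fits the log2 fold change lay between -0.87 and -0.58 in Cluster 9, -0.87 and -0.60 in Cluster 1, -0.78 and -0.53 in Cluster 4, and -0.90 and -0.66 in Cluster 17. With counts summed per dam, Neurod2 in Clusters 1 and 9 were the 2 of the 5 cluster calls still made. Without S2-4 the log2 fold changes were -0.80 for Neurod2, -0.74 for Neurog2 and -0.73 for Eomes in PN, and -0.59 for Neurod2 in IPC, all called. Of the 4 class calls, leaving out S1-1, S1-2, S2-1, E2-2 or E2-3 left 0. With batch as a covariate 0 cluster calls remained by edgeR, and the count in classes was again 4. The embryo plot shows the values behind these fits.

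**Figure D3:**
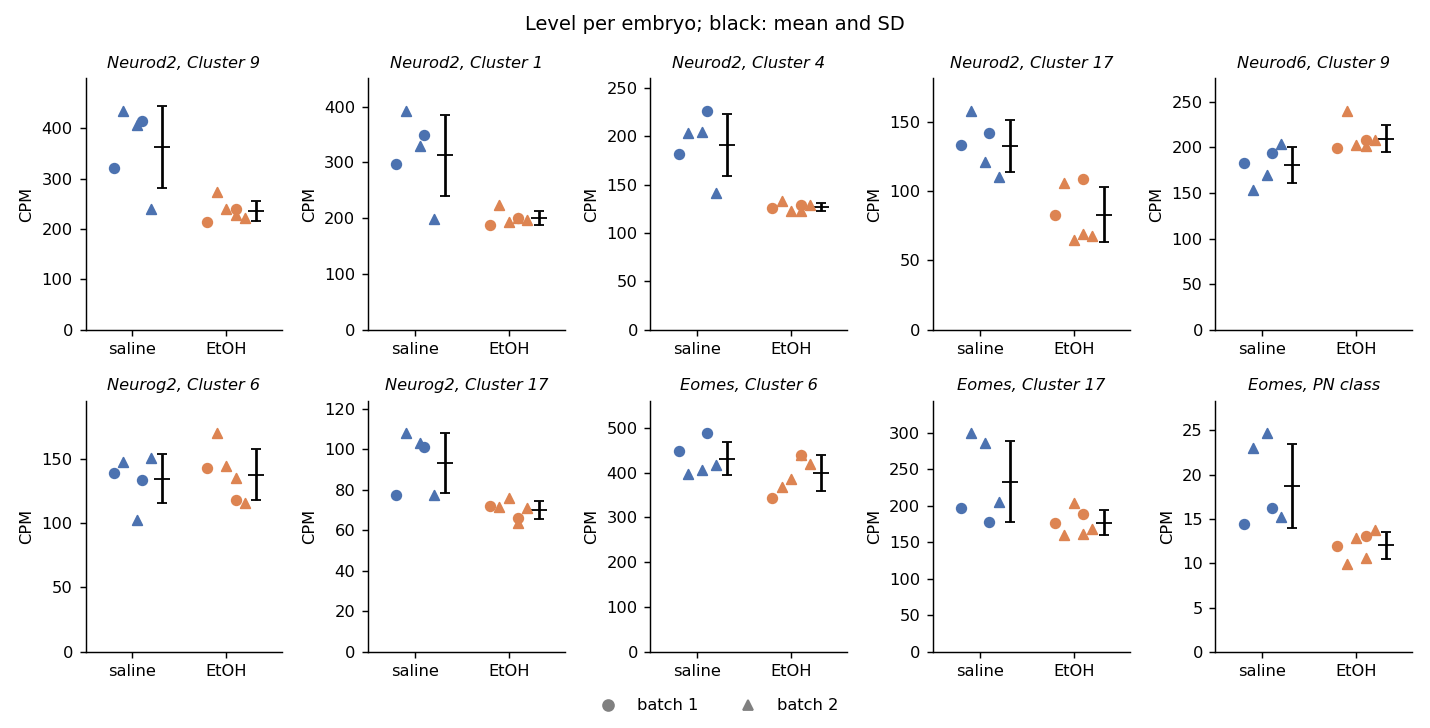
CPM (y axes, from 0) of each saline (blue, n = 5) and EtOH (orange, n = 6) embryo for the named gene and cluster or class; circles are batch 1 and triangles batch 2, and black marks show mean and SD. For Neurod2 the EtOH embryos sit close together in Clusters 9, 1 and 4 and spread from 64.5 to 109 CPM in Cluster 17, and S2-4 is the lowest saline triangle in Clusters 9, 1, 4 and 17; Eomes and Neurog2 overlap between groups in Cluster 6.

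Neurod6, the gene nearest to Neurod2 by cluster pattern, was called in 0 clusters. In Cluster 9 the saline embryos had 182, 194, 153, 170 and 204 CPM and the EtOH embryos 199 to 240 CPM with a median of 205. The groups overlapped, and the log2 fold change was 0.19 ± 0.09 (SE, edgeR adjusted p = 0.224). In Cluster 1 it was at 155 ± 18.02 and 191 ± 22.98 CPM (log2 0.26 ± 0.09, adjusted p = 0.0938). Estimates were above 0 in 16 of 22 tested clusters (2 had an unadjusted p under 0.05). With scaling factors taken from genes under 13 kb alone, a choice made after the length trend was seen, the value in Cluster 9 turned to -0.017. Without S2-4 the values were 0.21 in Cluster 9 and 0.29 in Cluster 1, neither called (edgeR adjusted p = 0.121 and 0.0276, the latter inside the limit on the fold).

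The ratio of Neurod2 to Neurod6 within an embryo needs no scaling between libraries. In PN it was 1.73, 2.40, 2.72, 2.13 and 1.145 in the saline embryos in the same order, and 1.04 to 1.23 in the EtOH embryos. Saline embryo S2-4 lay inside the EtOH range and the other 4 above it. The mean log2 ratio (EtOH minus saline) differed by -0.80. This pair was chosen after its values were seen to differ, so the ratio is a description with no test. In Clusters 1, 4, 6, 8, 9, 16 and 17 the log2 difference was -0.91 (Cluster 1) to -0.45 (Cluster 6). In PN it was -0.99 without S2-4 and -0.68 without S2-1, the embryos whose removal moved it most.

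Neurog2 and Eomes were called lower in the PN class, where both are far below their IPC levels. A class sum mixes clusters whose shares of nuclei differ between embryos, and the part of that mix was not tested. Neurog2 was at 9.77, 8.73, 11.1, 10.9 and 9.31 CPM in the PN of saline embryos and at 4.94 to 7.04 CPM (median 6.36) in EtOH embryos, without overlap (log2 -0.71 ± 0.11, edgeR adjusted p = 0.0211). Eomes was at 14.4, 16.2, 22.96, 24.7 and 15.2 CPM and at 9.90 to 13.8 CPM (median 12.4), also without overlap (log2 -0.66 ± 0.14, adjusted p = 0.026). With counts summed per dam, neither was called (edgeR adjusted p = 0.0928 for Neurog2 and 0.108 for Eomes). In Cluster 1 alone, Neurog2 was called at 11.6 ± 1.92 and 7.15 ± 1.64 CPM (log2 -0.72 ± 0.20, adjusted p = 0.0462, and 0.13 with counts summed per dam).

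Neurog2 is rare in PN nuclei. At 2000 UMIs a nucleus, Neurog2 was found in 2.72% ± 0.96 of Cluster 1 nuclei in saline embryos and 1.09% ± 0.158 in EtOH embryos. Over all embryos the interneuron clusters had 0.98 to 1.74%, so the saline share lay above that range and the EtOH share within it. The difference did not pass (exact permutation p = 0.00216, adjusted p = 0.0649). Eomes was found in 2.13% ± 0.495 of Cluster 1 nuclei in saline and 0.922% ± 0.542 in EtOH embryos (exact permutation p = 0.00866, adjusted p = 0.114), and in 0.756 to 4.06% of nuclei in the interneuron clusters. Summed over the interneuron class, Eomes was at 16.2 ± 3.73 CPM in saline and 12.3 ± 4.49 CPM in EtOH embryos (log2 -0.54 ± 0.22, edgeR adjusted p = 0.129, called by limma voom with a random dam effect at 0.0449 and with short-gene scaling at 0.0306) and Neurog2 at 8.74 ± 2.47 and 7.30 ± 1.43 CPM (log2 -0.36 ± 0.18, adjusted p = 0.213). The levels summed over PN were near those of interneurons, which serve as the background level, and most single PN clusters were not above them. Neurog2 in Cluster 1, where it was called, averaged 9.18 CPM over all embryos, inside the 3.95 to 14.5 CPM of the interneuron clusters. Eomes in Cluster 1 averaged 11.2 CPM, inside their 6.58 to 32.9 CPM. Eomes in Clusters 24 and 9, at 59.4 and 49.8 CPM, lay above the highest interneuron cluster, at 32.9 CPM. Neurog2 in Cluster 9, at 16.97 CPM, lay above the highest interneuron cluster, at 14.5 CPM. For both genes that interneuron cluster was Cluster 10, and its range overlapped with that of Cluster 9. In the interneuron class the batches went opposite ways. The log2 ratio of means was 0.21 in batch 1 and -0.78 in batch 2 for Eomes, and 0.42 and -0.63 for Neurog2. Whether the EtOH effect differed between PN and interneurons was not tested.

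In Cluster 9, Eomes was at 46.1, 67.0, 61.1, 91.6 and 49.0 CPM in the saline embryos and at 23.8 to 48.2 CPM (median 39.8) in the EtOH embryos. The groups overlapped through S1-1 only. The log2 fold change of -0.67 ± 0.19 was not called (edgeR adjusted p = 0.0755) and lay between -0.89 and -0.54 over all 22 fits. It was called by DESeq2 (adjusted p = 0.0385), without S2-4 (-0.76, edgeR adjusted p = 0.00805), with the replicate block (0.04), with no filter on low counts (0.00011) and with scaling factors from genes under 13 kb (0.0109). Eomes was found in 11.1% ± 4.82 of Cluster 9 nuclei in saline and 6.65% ± 1.78 in EtOH embryos, which did not pass (exact permutation p = 0.0152, adjusted p = 0.114). The marker lists of Cluster 9 given above apply here too. Several marker lists of other cells were also lower in the PN of EtOH embryos. The 6 interneuron markers summed to 105 to 225 CPM in the PN of saline and 59.1 to 115 CPM in those of EtOH embryos, the 4 markers of dividing cells to 60.2 to 104 and 33.6 to 67.4 CPM, and the 6 radial glia markers to 32.8 to 45.5 and 19.1 to 37.7 CPM. The 2 thalamus markers summed to 51.5 to 186 and 45.8 to 115 CPM, and the 3 choroid plexus markers to 4.14 to 34.7 and 1.28 to 16.6 CPM. The 3 microglia markers went the other way, from 3.52 to 6.93 CPM in saline to 6.30 to 9.64 CPM in EtOH embryos. The lists for meningeal fibroblasts, pericytes, endothelial cells and oligodendrocyte precursors reached at most 23.2 CPM, and 0 list genes were at 0. Their part in the lower Neurod2, Neurog2 and Eomes of PN was not tested.

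In non-mitotic IPC Cluster 6 the estimates for Eomes and Neurog2 were smaller than in the PN class, and progenitors were not tested against PN. In Cluster 6, Eomes was at 450, 488, 397, 406 and 416 CPM in saline and 343 to 440 CPM in EtOH embryos (log2 -0.18 ± 0.08, edgeR adjusted p = 0.235). Neurog2 there was at 134 ± 19.2 and 138 ± 19.8 CPM (log2 -0.03 ± 0.11, edgeR adjusted p = 0.908, and 0.248 to 0.992 over the alternatives). Both groups overlapped widely for each gene, and neither was called. Summed over the IPC class, Eomes had a log2 fold change of -0.24 ± 0.08, which was not called (edgeR adjusted p = 0.0808).

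In mitotic IPC Cluster 17, where the radial glia markers were higher after EtOH as given above, neither gene was called. Eomes was at 197, 178, 299, 286 and 205 CPM in saline embryos and 160 to 204 CPM (median 172) in EtOH embryos, and the groups overlapped through dam S1. Its log2 fold change of -0.43 ± 0.12 was not called (edgeR adjusted p = 0.113), and the log2 ratio of means was -0.04 in batch 1 and -0.60 in batch 2. Neurog2 was at 77.3, 101, 108, 103 and 77.5 CPM and at 63.8 to 76.1 CPM, without overlap but not called (log2 -0.44 ± 0.13, adjusted p = 0.113). Without S2-4, both were called (adjusted p = 0.0194 for Eomes and 0.0121 for Neurog2). In Cluster 12, Neurog2 and Eomes had log2 fold changes of 0.09 and 0.25, neither called.

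Estimates for Insm1 were above 0 in 9 of 10 tested clusters (median log2 0.25), and 0 were called by edgeR (1 at an unadjusted p under 0.05). Its values in Cluster 1 were 8.29 ± 2.58 and 13.05 ± 5.44 CPM (log2 0.58 ± 0.25, adjusted p = 0.155), called only without S2-4 (adjusted p = 0.0277). Genes under 5 kb, like Insm1, had medians above 0 in every cluster. Neurog1 was testable in Cluster 6 alone, where its log2 fold change was -0.55, and over all nuclei it was at 0.836 ± 0.158 and 0.553 ± 0.266 CPM (log2 -0.71 ± 0.28, adjusted p = 0.0882). Neurod4 was testable in Cluster 6 alone, with a log2 fold change of 0.14. The plot of fold changes sets the clusters side by side, and the plot by gene length shows where the members stood among genes of their size.

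**Figure D4:**
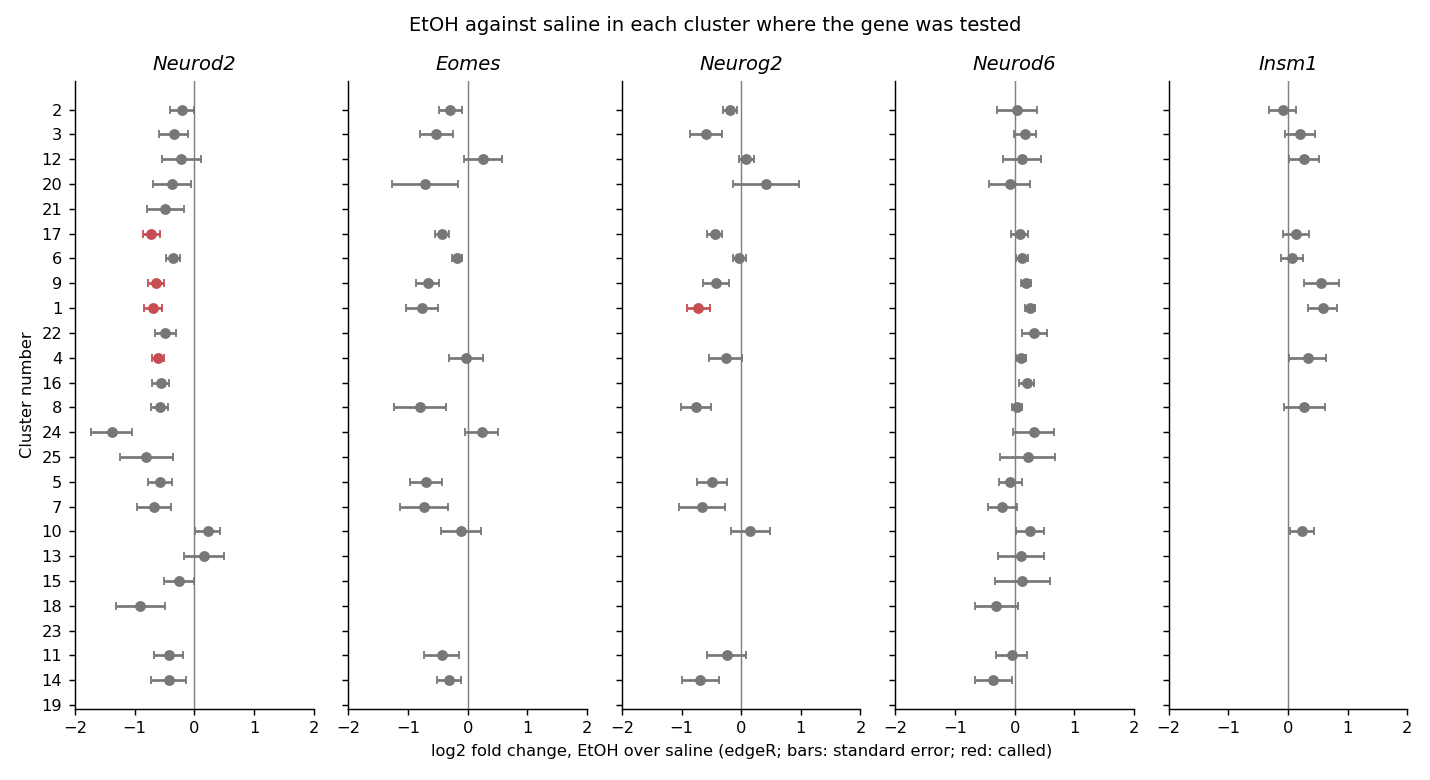
Log2 fold change (EtOH over saline, x axis) with standard error for Neurod2, Eomes, Neurog2, Neurod6 and Insm1 (panels) in each cluster (y axis) where the gene was tested; red marks the 5 calls and grey the rest. Neurod2 lies left of 0 in 21 of 23 clusters, and Insm1 lies right of 0 in 9 of 10.

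**Figure D5:**
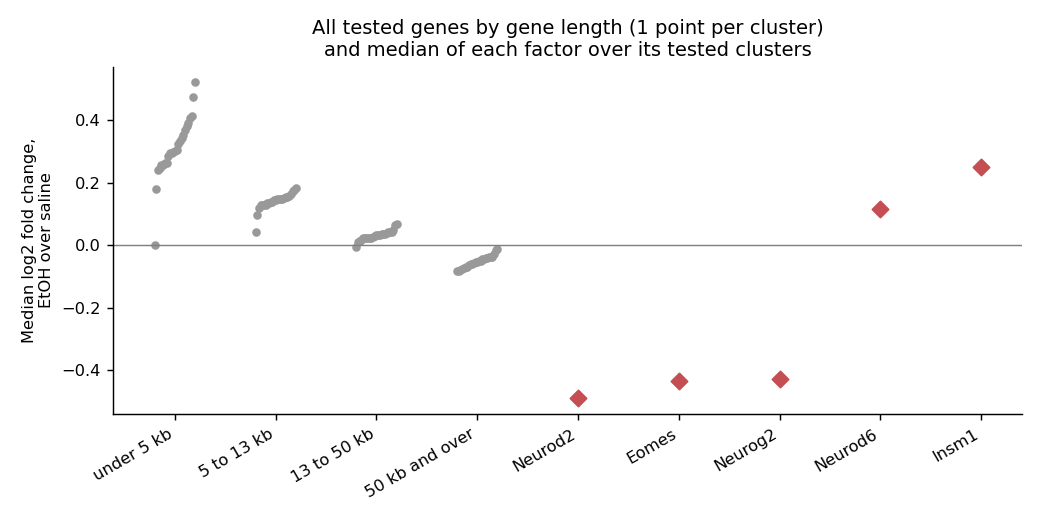
Median log2 fold change (EtOH over saline) of all tested genes in 4 classes of gene length, with 1 grey point per cluster, beside the median over tested clusters of 5 members (red diamonds). Genes under 5 kb lie above 0 in every cluster, Neurod6 and Insm1 lie above 0, and Neurod2, Eomes and Neurog2 lie at -0.49, -0.44 and -0.43.

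The share of nuclei with a UMI was compared at 2000 UMIs a nucleus, so that every nucleus had the same depth. Of 90 pairs of a member and a cluster with a mean share of at least 1%, 54 had a lower mean share after EtOH. By the two-sided exact permutation test 0 passed after adjustment, and 19 had an unadjusted p under 0.05, of which 16 were lower. Shares were computed for members only, so these counts have no share over all genes beside them and cannot be read as particular to the members. Eomes in Cluster 17 was found in 41.4% ± 7.37 of nuclei in saline and 28.2% ± 3.00 in EtOH embryos (SD, n = 5 and 6, exact permutation p = 0.00216, the smallest these splits allow, adjusted p = 0.0649). Neurog2 had the same p in Cluster 1 and in Cluster 3, where the shares were 2.70% ± 0.781 and 1.03% ± 0.325. Neurod2 fell short of the threshold in Cluster 4, with 30.7% ± 4.37 and 21.9% ± 2.09 (exact permutation p = 0.00649, adjusted p = 0.114), and in Cluster 9, with 48.6% ± 8.89 and 36.4% ± 2.84 (p = 0.013, adjusted p = 0.114). Since even the smallest p was adjusted to 0.0649 over the 90 pairs, passing depended on how many pairs reached such values. Without S2-4, which was picked out for lying in the EtOH range, there were fewer splits and 9 pairs passed.

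The EtOH effect was also tested for a difference between batches. Of 82 member tests of treatment by batch in 21 clusters, 0 were called by edgeR at an adjusted p under 0.05, and 11 had an unadjusted p under 0.05. Over all genes 0.0135% of 200457 tests were called, and 6.66% had an unadjusted p under 0.05. Each batch held 1 dam a treatment, so dam and treatment within a batch cannot be told apart.

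The wider pathway was followed in 4 lists, chosen with earlier results of these data known. Of 758 tests of 45 list genes in clusters, 3 were called higher and 9 lower, or 1.58%, beside 0.792% of all tests called and 0.35% called lower. Among Notch ligands, receptors and repressors, 3 of 126 tests (2.38%) were called, all higher: Hes1, the repressor of proneural genes, rose from 54.6 ± 7.22 to 81.8 ± 9.51 CPM in RGC Cluster 12 (log2 0.56 ± 0.12, edgeR adjusted p = 0.0419) and from 35.9 ± 8.22 to 56.2 ± 11.3 CPM in interneuron precursor Cluster 3 (adjusted p = 0.0456). Notch2 rose in Cluster 3 (log2 0.35 ± 0.09, adjusted p = 0.0475). These calls depended on the setting: they were made again under 8, 8 and 6 of the alternatives, and the adjusted p reached 0.446, 0.74 and 0.243 under the others. Genes under 5 kb had a median log2 fold change of 0.37 in Cluster 12 and 0.30 in Cluster 3. The part of gene length in the higher Hes1 was not tested. The list's median log2 fold change was -0.13.

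Among bHLH partners and relatives, 1 of 97 tests (1.03%) was called. The E protein gene Tcf12 fell from 278 ± 43.8 to 204 ± 14.5 CPM in Cluster 4 (log2 -0.46 ± 0.08, edgeR adjusted p = 0.0495), a call made again under 7 alternatives and lost under the rest (adjusted p up to 0.202). Of the IPC and newborn neuron genes, 2 of 373 tests (0.536%, under the share of all tests) were called, Slc17a6, the vesicular glutamate transporter gene, in migrating interneuron Cluster 5 (48.5 ± 4.23 to 27.4 ± 5.71 CPM, log2 -0.85 ± 0.13, adjusted p = 0.0105) and the RNA-binding protein gene Elavl2 in Cluster 3 (log2 -0.40 ± 0.10, adjusted p = 0.0406). Slc17a6 marks glutamatergic cells, and whether its level in Cluster 5 lay above a background level was not tested. The Slc17a6 call was made under every alternative run and that of Elavl2 under 10 (adjusted p up to 0.121). Median log2 fold changes of these lists were -0.08 and -0.04.

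Of the radial glia transcription factors, 6 of 162 tests (3.70%) were called, all lower, and the list's median was -0.23. Gli3, a zinc finger factor of the hedgehog pathway, was lower in PN Clusters 1, 8, 9 and 16, for example from 75.9 ± 24.5 to 30.1 ± 5.87 CPM in Cluster 1 (log2 -1.38 ± 0.24, edgeR adjusted p = 0.0256). Hmga2, a chromatin protein of early progenitors, was lower in PN Cluster 8 (log2 -1.02 ± 0.22, adjusted p = 0.0405), and Sox2 in Cluster 5 (log2 -0.43 ± 0.11, adjusted p = 0.0484). Of the alternatives, 14 again called Gli3 in Cluster 1, 12 in Cluster 16, 8 in Cluster 9 and 7 in Cluster 8, 10 called Hmga2 and 7 Sox2, whose adjusted p reached 0.62. All 12 list calls were made again without S2-4. In Cluster 1 the 6 radial glia markers summed to 26.9 to 47.0 CPM in saline and 15.2 to 33.4 CPM in EtOH embryos, and their values in Cluster 9 are given above. Their part in the lower Gli3 was not tested. Genes of 50 kb and over were called lower in 3.44% of tests in Cluster 1 and 1.81% in Cluster 9, beside 0.453% and 0.234% for genes under 5 kb. The part of gene length in the lower list genes was not tested.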

How the data were processed

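Single-nucleus libraries of 11 mouse embryos (5 saline, 6 EtOH) were analysed, and saline embryo S2-3, listed in the labels, was not used here. Per the submitters' notes and methods, Cell Ranger and the mm10 reference were used, and nuclei and genes were filtered before clustering. The authors deposited raw UMI counts per gene and nucleus in 1 table for each embryo and cluster. The strand of counting is not given in the sources used here, and doublets were neither called nor removed here.

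Counts were summed per embryo and cluster with Python 3.11.15 and expressed as CPM. EtOH was compared with saline by edgeR 4.0.16 (TMM, filterByExpr, robust quasi-likelihood test, at least 10 nuclei per embryo and 2 embryos per group) in R 4.3.3, with Benjamini-Hochberg adjustment over the genes of each cluster. DESeq2 1.42.0 and limma 3.58.1 (voom, dam as random block) were alternatives, and the main fit and 4 alternatives were tested on simulated data. In simulated counts of Cluster 9 (9138 genes), edgeR called 37.3% of genes changed 1.5-fold and 80.6% of those changed 2-fold. The simulated embryos were independent and held no effect of dam, batch or gene length, so these rates may not hold for the real libraries. Shares of nuclei were compared after thinning to 2000 UMIs by two-sided exact permutation tests over embryos. With 2 dams per treatment, littermates were taken as independent.

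Depth limits Neurog1 and Neurod4 most, since total UMIs per embryo ran from 14078316 to 83061737 and each gene gave few counts. Gene positions are from GENCODE M21 on GRCm38, and promoters from RefSeq for 6 members, with none found for Insm1. The text names all members in the tables, up to 20 pathway-list tests with the smallest adjusted p among those called, and the 3 genes most like each member. Members and lists were chosen with earlier results of these data known. Alternatives covered normalization, test, filter, batch, dam, replicate number, nuclei per embryo, depth, call and each embryo left out.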

Additional observations from a re-analysis of the deposited data

Results flagged for a closer look

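In 52 groups of embryos, the highest or lowest value of a member was checked for a gap from the others, and 4 were set apart. Such gaps arise by chance in about 1 of 20 groups. Neurod6 in Cluster 1 was at 149 CPM in EtOH embryo E1-1, below the 188 to 215 CPM of the other 5 EtOH embryos. Neurod6 in Cluster 9 was at 240 CPM in EtOH embryo E2-1, above the 199 to 208 CPM of the others. Neurog1 in Cluster 6 was at 0 CPM in EtOH embryo E1-2, where the others had 3.82 to 7.09 CPM and 3 counts in E1-2 would be 3.13 CPM. Neurog2 in Cluster 12 was at 71.6 CPM in saline embryo S1-1, above the 62.3 to 64.4 CPM of the other 4 saline embryos.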

How the results depend on the processing

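Where 5 pairs of a member and a cluster were called, DESeq2 called 8, no filter on low counts 17 (170 tests in place of 88), batch as a covariate 0, counts summed per dam 3 (Neurod2 in Clusters 1, 9 and 24, the last not among the 5), nuclei thinned to 2000 UMIs 2 (36 tests), adjustment over all genes and clusters together 2 (Neurod2 in Clusters 4 and 17), and scaling factors from genes under 13 kb, an alternative chosen after seeing the data, 16. Leaving out single embryos gave 0 to 13 calls. Limma voom with a random dam effect called 6 pairs in clusters and 4 in classes (Eomes in interneurons in place of Neurod2 in IPC). Against 4 calls in classes, counts summed per dam left 0, thinned nuclei 2, short-gene scaling gave 12, and single embryos left out gave 0 to 5. Against 12 list calls, DESeq2 gave 27, no filter 64, limma voom with a random dam effect 24, short-gene scaling 76, and single embryos left out 1 to 55. Shares of nuclei that passed went from 0 to 13 without thinning, where depth also differs, and to 0 to 9 with single embryos left out. The log2 difference in the Neurod2 to Neurod6 ratio was -0.99 to -0.68 over the embryos left out. Apart from the fit without S2-4, the share of all genes called in each of these settings is not given here. These counts can therefore not be read as particular to the members or lists. The cause of these shifts was not tested beyond the number of tests and embryos.

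Estimates turned sign for Neurog2 in Cluster 6 with thinned nuclei (0.073) and without EtOH replicate 2 or 6 (0.0084 and 0.016; -0.12 to 0.016 over all embryos left out), and with short-gene scaling for Neurog2 in Cluster 12 (-0.10) and Neurod6 in Cluster 9 (-0.017); none of these was called. With the replicate number as a block, 3 pairs of a member and a cluster, 0 pairs of a member and a class and 2 list tests were called. The numbers only name embryos: of 5 same-numbered pairs, deviations correlated at -0.26 to 0.18, and 1 saline embryo correlated best with its own number. Precision is limited by 5 and 6 embryos and by low counts of Neurog1 and Neurod4.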
